A study of Mus musculus with 8 samples.

Results

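The cytosolic ribosomal proteins are the protein components of the ribosomes that translate nuclear-encoded messages, as distinct from the mitochondrial ribosomal proteins. They were taken as the protein-coding mouse genes whose symbols start with Rpl or Rps and a digit, or with Rplp or Rpsa, without the S6 kinases (Rps6k symbols) and without pseudogene-type symbols ending in -ps. The count table held 33105 genes, and 85 of them met this rule. Of these, 77 encode standard components of the ribosome, 31 of the small and 46 of the large subunit, and are called canonical here. The other 8 are paralogues or related genes, namely Rpl3l, Rpl7l1, Rpl22l1, Rpl36al, Rpl39l, Rps27l, Rps27rt and Rps19bp1. The members lay on 19 chromosomes, with 14 on chromosome 7 and 4 on X.

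RNA was sequenced from snap-frozen heart tissue of C57BL/6J mice after a minimally invasive operation that produces mitral regurgitation, a leak of the valve that loads the left heart with extra volume (MR, 4 libraries), or after a sham operation (Sham, 4 libraries). No transgene or other treatment is named, and the sources used here do not give the age of the mice, the time after surgery or the part of the heart. The labels do not say that each library came from its own animal, so each p-value reflects only how far these libraries vary among themselves, and part of that may be technical. The stated aim was to find pathways and genes tied to volume overload hypertrophy. Replicates are called Sham 1 to 4 and MR 1 to 4, in the order of deposit, and a number does not pair a Sham with an MR library.

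Ribosomal proteins fold onto ribosomal RNA in the nucleolus and assemble with it into the small subunit, which reads the message, and the large subunit, which joins amino acids. Their messages typically begin with a run of pyrimidines (C or T in the DNA) at the first transcribed base, the terminal oligopyrimidine motif, through which mTORC1 signalling and Larp1 control their translation together. Ribosome production is known to increase when heart muscle grows under load. Levels of messages, which are what was measured here, do not show how strongly these messages were translated.

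Total counts ran from 42291511 to 58658094 per library, and mitochondrially encoded genes took 25.6% to 28.6% of them. Ventricular cardiomyocyte markers were high in every library, with a summed level of 58274 to 66667 CPM (counts scaled to a common library total) in Sham and 54029 to 60801 in MR. In the fit over all 16603 genes that passed the filter on low counts, edgeR's quasi-likelihood test with Benjamini-Hochberg adjustment called 40 genes higher and 36 lower in MR at an adjusted p under 0.05. In bulk tissue, fewer cells of a type and less RNA per cell cannot be told apart.

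The canonical members were abundant and, on a scale that allows comparison between genes, mostly of similar level. The median canonical gene had 167 CPM per kilobase of its main annotated transcript, as a mean over the 8 libraries. Among the highest were Rps2 with 510, Rps15 with 485, Rplp1 with 383 and Rps29 with 373 CPM per kilobase. Rps2, Rps15 and Rps29 belong to the small subunit, and Rplp1 is an acidic protein of the large subunit's stalk. Without the 3 lowest canonical genes, the levels ran from 22.1 CPM per kilobase for Rpl21 to 510 for Rps2, and the upper quartile was 2.27 times the lower one. Annotated pseudogenes of Rpl21 held 65.3% as many counts as Rpl21, so its value is uncertain. Rps15a and Rps20 have long main transcripts in the annotation, which lowers a level per kilobase.

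The 3 lowest canonical genes, Rpl24 with 0.536, Rps10 with 1.29 and Rpl13a with 3.59 CPM per kilobase, stood far below the rest. Rpl24 lies in the contact between the subunits, Rps10 is on the head of the small subunit, and Rpl13a is a large subunit protein often used as a reference gene. In the annotation, each of these genes shares exons on its own strand with an overlapping gene. The shared bases were 484 for Rpl24 with Gm28037 (47.0% of its exon bases), 475 for Rps10 with RPS10-NUDT3 (20.6%) and 621 for Rpl13a with Gm45713 (29.4%). Annotated pseudogenes of Rps10 held 3823% as many counts as Rps10 itself. The sources used here do not say how such reads were counted, so the levels of these 3 genes are uncertain.

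**Figure D1:**
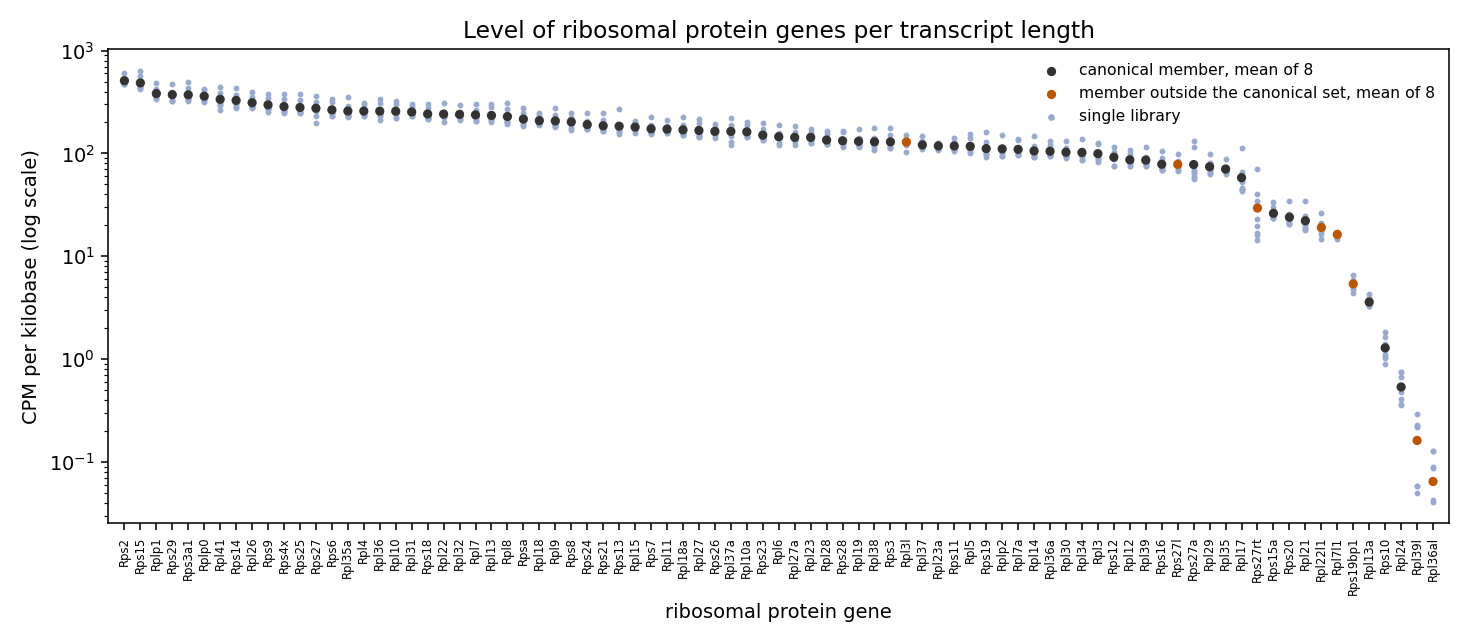
Level of the ribosomal protein genes in CPM per kilobase of its main annotated transcript, on a log axis, with genes ordered by their mean. Large points are means of 8 libraries (dark, canonical; orange, outside the canonical set) and small points are single libraries, with values of 0 left out. Most canonical genes lie near the median of 167, and Rpl13a, Rps10 and Rpl24 lie near the bottom at 3.59, 1.29 and 0.536.

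Members outside the canonical set ranged from muscle-abundant to barely counted. Rpl3l, the striated-muscle paralogue of Rpl3, had 129 CPM per kilobase against 99.5 for Rpl3. Rps27l had 78.2, Rps27rt 29.4, Rpl22l1 19.1, Rpl7l1 16.3 and Rps19bp1 5.38 CPM per kilobase. Rps27l and Rpl22l1 are paralogues of Rps27 and Rpl22, Rps27rt is a retrogene copy of Rps27, Rpl7l1 is a nucleolar relative of Rpl7, and Rps19bp1 binds Rps19 and is not a ribosome component. Rpl36al and Rpl39l did not pass the filter on low counts. Rpl39l had 0.0404 to 0.234 CPM, and Rpl36al was at 0 in MR 1 and MR 3 and at most 0.0669 CPM elsewhere, against 0.0511 to 0.0709 CPM for 3 counts. Rpl36al shares 332 exon bases (24.5%) on its own strand with the overlapping gene Gm49383. How such reads were counted is not stated, so the level of Rpl36al is uncertain too.

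Because the pyrimidine run is the shared feature of these messages, the windows around the RefSeq starts were searched for it (build GRCm38.p6, 250 bases before to 50 after each start). The table matched 57 of 77 canonical genes in 67 windows and all 8 other members in 10 windows. RefSeq starts are approximate, so the longest run of C and T beginning with C was taken within 50 bases of the start. The sequences below show the strand of the message, 5′ to 3′, with that run in capitals. They cover genes that the results return to (Rps6, Rpl5, Rpl11, Rplp0, Rpl7a), the pair Rps27 and Rps27rt, the muscle paralogue Rpl3l, and Rpl27a as a long run.
Rps6 (chr4:86857349-86857378, minus): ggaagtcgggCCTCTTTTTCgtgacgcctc
Rpl5 (chr5:107900497-107900526, plus): gcctacagccaCTCTTTCTCacgtcgcttg
Rpl11 (chr4:136053357-136053386, minus): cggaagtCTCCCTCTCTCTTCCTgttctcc
Rpl27a (chr7:109519186-109519215, plus): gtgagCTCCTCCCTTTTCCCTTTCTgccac
Rpl7a (chr2:26910789-26910818, plus): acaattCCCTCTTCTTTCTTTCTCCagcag
Rplp0 (chr5:115559467-115559496, plus): ggaccgcctggttCTCCTataaaaggcaca
Rps27 (chr3:90213632-90213661, minus): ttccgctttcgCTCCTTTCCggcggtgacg
Rps27rt (chr9:114982705-114982734, minus): cggcggtgacgaCCTCCCTacgagaacatg
Rpl3l (chr17:24727846-24727875, plus): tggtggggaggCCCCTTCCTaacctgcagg

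Among the canonical windows, 54 of 67 (80.6%) held such a run of at least 8 bases, against 28.3% of the 13781 windows of all protein-coding genes that passed the count filter. Genes with several starts enter with more than 1 window, and such windows can hold the same run. Counted by gene, 48 of 57 canonical genes (84.2%) had a run of at least 8 bases in any window, against 32.8% of the 10772 genes. A run of at least 10 bases stood in 61.2% of the canonical windows, in 14.7% of all windows and in 0 of the 10 windows of the other members. The median run was 10 bases in canonical windows, 7.5 in those of the other members and 6 in all windows. Rpl7a had a run of 19 bases and Rpl27a of 20, whereas Rplp0 had 5 and Rps27rt 7. The Rplp0 run leads into a TATAAA that lies after the RefSeq start. It may therefore not be the run at the first transcribed base. The ETS core CTTCCG, on either strand, was in 62.7% of canonical and 28.4% of all windows, and its letters can overlap a pyrimidine run. CTTTCC was in 49.3% and 26.5%, CTCTTTC in 31.3% and 7.52%, AAGATGG in 16.4% and 6.68%, and TATAAA in 8.96% and 7.66%, each on either strand. These matches are a description of sequence, and binding or initiation was not measured.

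No ribosomal protein gene was called different between MR and Sham hearts, yet most had a slightly lower mean in MR. Of the 83 members tested, 0 were called higher and 0 lower at an adjusted p under 0.05, and the smallest adjusted p was 0.204. Among all genes tested the same rule called 0.458%, with 0.241% higher and 0.217% lower. The log2 fold change of MR against Sham was below 0 in 78 members and above 0 in 5, with a median of -0.18 against 0.00 over all genes. The 31 small subunit genes were all below 0, with a median of -0.18, as were 44 of the 46 large subunit genes, with a median of -0.17. These signs are not separate observations, since the members moved together from library to library.

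At an unadjusted p under 0.05, 21 members were lower and 1 was higher in MR, where 7.29% and 7.78% of all genes tested passed that rule. This count changed as single libraries were left out, and so did the calls over all genes. It was 5 lower members without Sham 1, 37 without Sham 2, 52 without Sham 3 and 2 without Sham 4. It was 3 without MR 1, 24 without MR 2, 7 without MR 3 and 4 without MR 4. The share of all genes passing that rule in each of these fits was not computed. A change particular to the members therefore cannot be told from a change over all genes. At an adjusted p under 0.05, the calls over all genes in these fits ran from 1 to 497 higher and from 2 to 390 lower. Members with adjusted p under 0.05 appeared in only 1 of these 8 fits, without Sham 3, where Rps3a1 and Rpl41 were called lower among 390 lower and 497 higher genes of 16813 tested, so the members' count was near the background of that fit. With all libraries but no filter on low counts, Rpl7a was called higher and 5 members lower, Rpl41, Rpl5 and Rps3a1 among them. That fit called 517 genes higher and 419 lower of 30605 tested, so the members' share was above that background for lower calls only. The 30605 genes include those with few counts. Without Sham 1 the median log2 fold change of the members was -0.07 and 66 of 83 were below 0.

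The size of any difference was bounded. The median standard error was 0.11 on the log2 scale, and the 95% interval of the difference lay within 1.5-fold in either direction for 77 of 83 members and within 2-fold for 80. The intervals are not adjusted for the number of genes tested. They excluded 0 for 22 members, the same ones that had an unadjusted p under 0.05. The log2 fold changes ran from -1.23 for Rps27rt to 0.27 for Rpl7a.

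**Figure D2:**
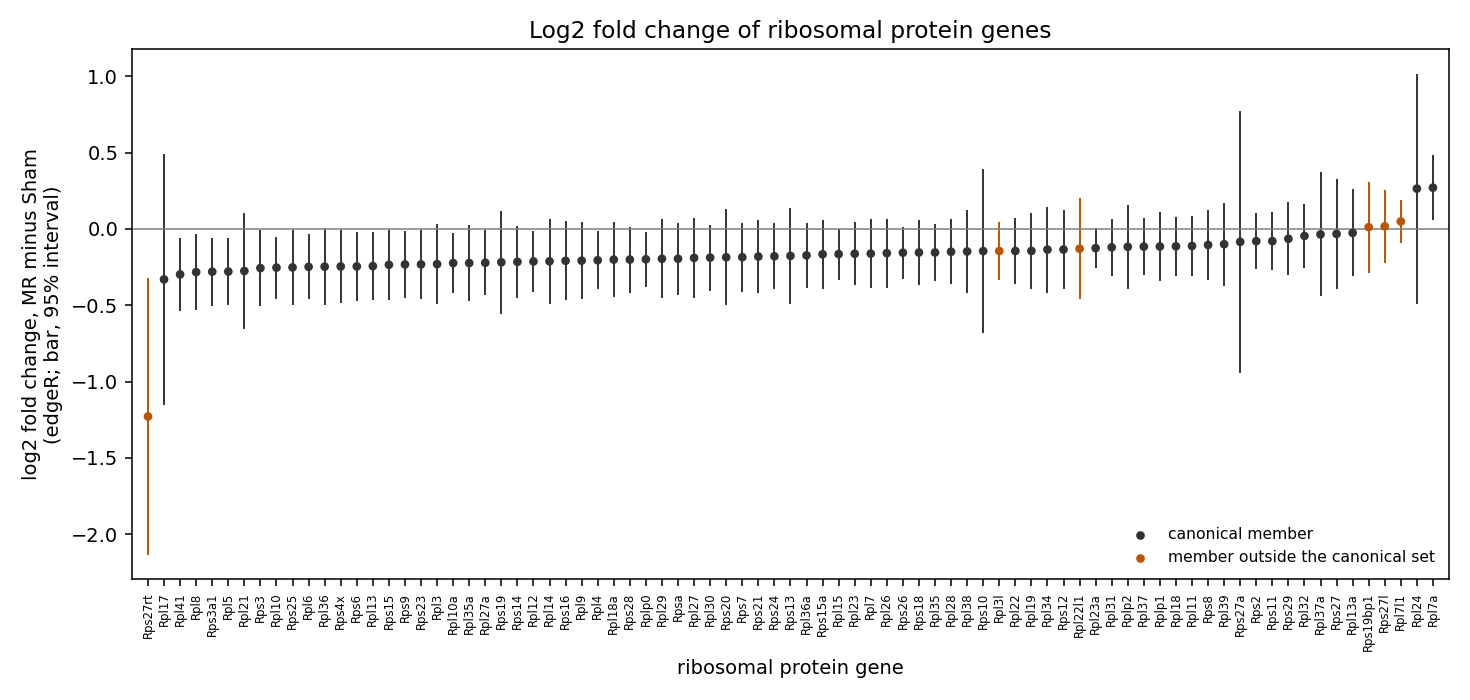
Log2 fold change (MR minus Sham, edgeR) of the members tested, ordered by value, with 95% intervals as bars (dark, canonical; orange, outside the canonical set). Most points lie below 0, within a narrow band, while Rps27rt lies at -1.23 and Rpl7a at 0.27.

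Single libraries differed more than the groups did. The members took 1.44% of all counts in Sham 1, 1.07% in Sham 2, 1.07% in Sham 3 and 1.32% in Sham 4, with a mean of 1.23% ± 0.188 (SD, n = 4). In MR they took 1.07%, 1.20%, 1.09% and 1.09% in libraries 1 to 4, with a mean of 1.11% ± 0.0597 (SD, n = 4). The groups overlapped, since Sham 2 and Sham 3 were at or below the MR values, while Sham 1 and Sham 4 were above all of them.

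Gene by gene the same libraries stood out. The typical canonical gene was at 1.30 times its own mean over the 8 libraries in Sham 1, 0.942 times in Sham 2, 0.912 times in Sham 3 and 1.13 times in Sham 4. In MR 1 to 4 the values were 0.919, 1.02, 0.931 and 0.917 times. Sham 1 was the highest of all libraries for 73 of the 77 canonical genes. It exceeded all 4 MR values for 75 genes and Sham 4 did so for 66, whereas Sham 2 did so for 7 and Sham 3 for 2. Sham 2 lay within the MR range for 62 genes and Sham 3 for 55, and Sham 3 was below every MR library for 20. Within MR, library 2 was the highest for 69 of 77.

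**Figure D3:**
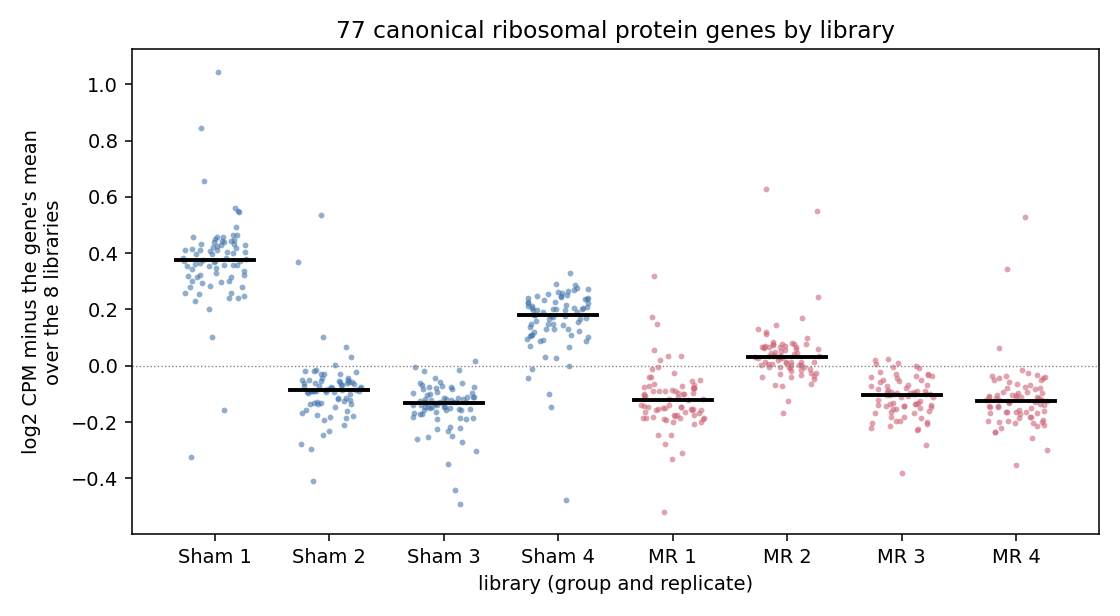
Log2 CPM of each of the 77 canonical genes minus that gene's mean over the 8 libraries, by library, with a point per gene and a black line at the median. Sham 1 (0.37) and Sham 4 (0.18) sit above the other libraries, and Sham 2 and Sham 3 (-0.09 and -0.13) sit close to MR 1 to 4 (-0.13 to 0.03).

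The spread within the groups followed from this. The median SD of log2 CPM of a canonical gene was 0.25 over the Sham libraries and 0.10 over the MR libraries. The Sham SD was the larger in 74 of 77 canonical genes (96.1%), against 65.8% of the other genes tested. Each gene was correlated over the 8 libraries with the median profile of the canonical genes, as a description. A canonical gene was left out of the median it was compared with. The correlation was above 0.9 for 60 of 77 canonical genes (77.9%), against 331 of the 16520 genes that are not members. All these profiles share the same libraries and scaling. The median correlation was 0.96 for canonical and 0.53 for the 6 other members tested.

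Other measures moved with Sham 1 and Sham 4. The summed level of 10 neutrophil markers was 40.3 CPM in Sham 1, 13.6 in Sham 2, 9.50 in Sham 3 and 73.0 in Sham 4, and 3.60 to 6.56 CPM in MR, with Ly6g at 0 in Sham 3, MR 1 and MR 3. Of these markers 8 were tested and 0 were called, with a smallest adjusted p of 0.0513 and a median log2 fold change of -3.51. All 8 were below 0, and 7 had an unadjusted p under 0.05, where 7.29% of all genes tested were lower by that rule. Erythroid markers, 7 listed and 6 tested with 0 called, summed to 310 to 560 CPM in Sham, highest in Sham 1 and Sham 4, but to 377 to 725 CPM in MR. The short length of these genes also went with library: the median main transcript was 774 bases for canonical members and 2566 for all genes tested, and the fitted trend of level with length placed genes of the members' length 0.18 above average (log2) in Sham 1 and between -0.04 and 0.04 in the others. With that trend removed, 73 of 83 members were still below 0, with a median of -0.12, and 0 were called. Some markers of other cells also differed between the groups. Of 10 cardiomyocyte markers, 8 had log2 fold changes below 0, with a median of -0.13, 5 at an unadjusted p under 0.05 and 0 called. Of 10 fibroblast markers, 7 were above 0 and 3 below, with a median of 0.15, and 2 were called higher. These 2 were Col1a1 at 0.81 and Col1a2 at 0.63 (edgeR adjusted p = 0.0483 and 0.0159). The fibroblast markers below 0 were Dcn at -0.01, Gsn at -0.02 and Tcf21 at -0.05. Endothelial markers had 7 of 10 above 0 (median 0.10) and macrophage markers 7 of 10 (median 0.06). Smooth muscle and pericyte markers had 6 of 9 above 0 (median 0.07), and T cell markers 1 of 3 tested. B cell markers, at 0.994 to 3.76 CPM summed, had 5 of 6 tested above 0 (median 0.80). Of these 6, 4 were higher at an unadjusted p under 0.05, as were 7.78% of all genes tested. In each of these lists 0 were called. The part of these cell types in the members' pattern was not tested.

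The proteins of the ribosomal stalk, where elongation factors bind, showed the common pattern. Rplp0, the stalk's base and a frequent reference gene (chromosome 5, 115559467 to 115563727, GRCm38), had 581, 488, 463 and 559 CPM in Sham 1 to 4 and 433, 486, 443 and 460 CPM in MR 1 to 4. The means were 523 ± 56.2 and 456 ± 23.0 CPM (SD, n = 4), for a log2 fold change of -0.20, with an SE of 0.08 (edgeR adjusted p = 0.286). Only Sham 1, Sham 2 and Sham 4 were above all MR libraries, and Sham 3 lay among them. The acidic proteins Rplp1 and Rplp2 had log2 fold changes of -0.11 and -0.12, and Rpl12, which sits at the foot of the stalk, had -0.21 (adjusted p = 0.301).

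Rpl5 and Rpl11 join the large subunit together with 5S ribosomal RNA, and when unassembled both bind Mdm2, the regulator of p53. Rpl5 had 315, 226, 224 and 286 CPM in Sham 1 to 4 and 210, 226, 221 and 209 CPM in MR 1 to 4. Sham 2 and Sham 3 matched the upper MR libraries, so the log2 fold change of -0.28 (SE 0.10, adjusted p = 0.216) came with overlapping groups. Rpl11 had 176, 136, 131 and 153 CPM in Sham and 134, 151, 136 and 131 CPM in MR, for a log2 fold change of -0.11, with an SE of 0.09 (adjusted p = 0.616). The members of the 5S particle thus had unequal fold changes, and the difference between them was not tested.

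The canonical genes with the smallest p-values on the lower side were Rpl5, Rps3a1, Rpl41 and Rpl10. Rps3a1, a small subunit protein (chromosome 3, 86137940 to 86142702), had 484, 355, 332 and 422 CPM in Sham 1 to 4 and 315, 343, 334 and 321 CPM in MR 1 to 4. Its groups overlapped only through Sham 3, and its log2 fold change was -0.28 (SE 0.10, adjusted p = 0.216). Rpl41, a very short peptide of the large subunit (chromosome 10, 128548114 to 128549305), had 240, 189, 167 and 211 CPM in Sham and 144, 161, 163 and 189 CPM in MR. MR 4 reached the level of Sham 2 and Sham 3 lay within the MR range, and the log2 fold change was -0.30 (SE 0.11, adjusted p = 0.217). Rpl10, which joins late in maturation of the large subunit, had a log2 fold change of -0.25, with an SE of 0.09 (adjusted p = 0.221), from a Sham mean of 224 ± 30.1 CPM and an MR mean of 188 ± 14.3 CPM (SD, n = 4).

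Rps6 is the small subunit protein that S6 kinases phosphorylate downstream of mTORC1. It had 299, 217, 219 and 277 CPM in Sham 1 to 4 and 202, 233, 217 and 201 CPM in MR 1 to 4. Sham 1 and Sham 4 were above every MR library and the other Sham libraries were not, for a log2 fold change of -0.25, with an SE of 0.10 (adjusted p = 0.286). Rpsa, a small subunit protein also known as a laminin receptor, had 446, 328, 307 and 393 CPM in Sham and 301, 351, 297 and 338 CPM in MR, for a log2 fold change of -0.20, with an SE of 0.11 (adjusted p = 0.430). The most abundant canonical genes per length differed by similar or smaller amounts, from -0.06 for Rps29 and -0.08 for Rps2 to -0.23 for Rps15.

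Members used as reference genes in RT-qPCR also followed the common pattern. Of 8 such genes, 0 were called, all 8 had log2 fold changes below 0, and the median was -0.15. Rpl4, which lines the exit tunnel, was at -0.20 (adjusted p = 0.292), Rpl7 at -0.16, Rps18 at -0.15, Rpl19 at -0.14 and Rpl32 at -0.05 (adjusted p = 0.870). The typical gene of this list stood 0.31 above its mean (log2) in Sham 1 and 0.15 below it in Sham 3, a wider range than between the group means. Genes in which loss of a copy causes Diamond-Blackfan anaemia, an inherited failure of red cell production, gave 20 of 20 log2 fold changes below 0, a median of -0.16 and 0 called.

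Rpl7a was 1 of 2 canonical genes with a positive fold change, the other being the scarcely counted Rpl24. Rpl7a encodes a large subunit protein and hosts small nucleolar RNAs in its introns (ENSMUSG00000062647, chromosome 2, 26910764 to 26913318). It had 89.1, 97.3, 87.5 and 89.6 CPM in Sham 1 to 4 and 124, 90.9, 97.8 and 126 CPM in MR 1 to 4. MR 1 and MR 4 were high, MR 2 lay within the Sham range, and MR 3 was just above it. Sham libraries averaged 90.8 ± 4.37 CPM and MR libraries 110 ± 17.8 CPM (SD, n = 4), and the log2 fold change was 0.27 (SE 0.10, adjusted p = 0.214). Its profile over the 8 libraries had a correlation of -0.53 with the median canonical profile, the lowest of any member, and it was not raised in Sham 1. The pyrimidine run shown for Rpl7a above had 19 bases. The 8 annotated Rpl7a pseudogenes held 7.23% as many counts as Rpl7a.

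Rps27rt had the largest fold change among the members, at low counts. This retrogene copy of Rps27 (chromosome 9, 114982366 to 114982739) had 7.38, 15.2, 26.5 and 12.8 CPM in Sham 1 to 4 and 5.34, 6.05, 6.32 and 8.59 CPM in MR 1 to 4. The groups overlapped, since Sham 1 was below MR 4, and Sham 3 was the highest. The log2 fold change was -1.23 (SE 0.38, adjusted p = 0.204). Its order of libraries was unlike the canonical one, with a correlation of -0.15. The parent gene Rps27, a zinc-binding small subunit protein, had 125, 79.7, 69.0 and 110 CPM in Sham and 97.2, 98.0, 89.2 and 91.1 CPM in MR, for a log2 fold change of -0.03, with an SE of 0.16 (adjusted p = 0.955). A retrogene and its parent can share reads, so the value for Rps27rt is uncertain.

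**Figure D4:**
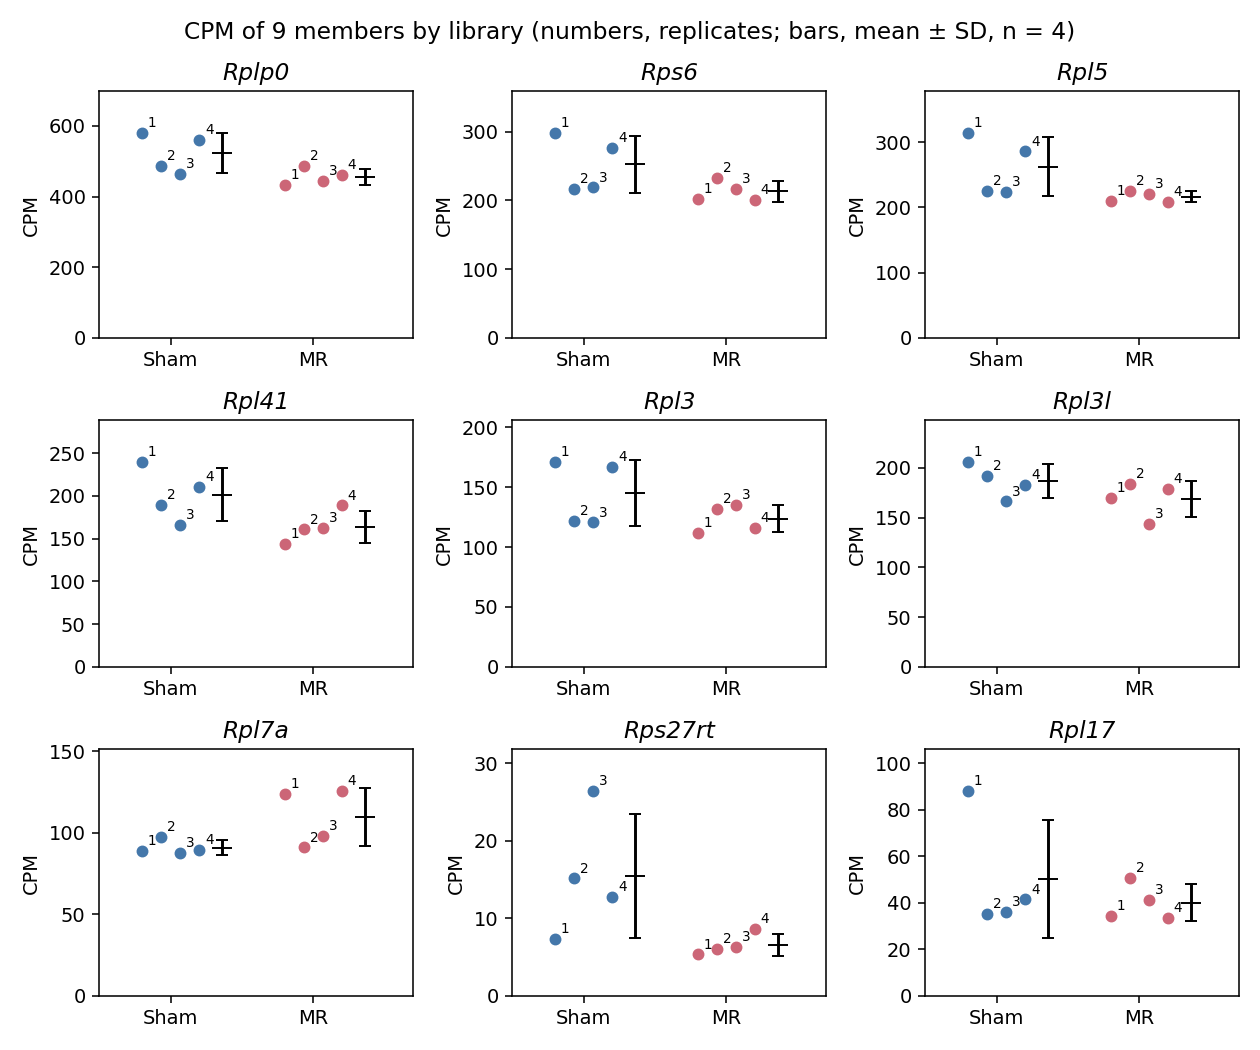
CPM of 9 members in each library (blue, Sham; red, MR; the number beside a point is the replicate), with the mean and SD of 4 libraries as a bar and each axis starting at 0. Rplp0, Rps6, Rpl5, Rpl41 and Rpl3 are highest in Sham 1 and Sham 4, Rpl7a is highest in MR 1 and MR 4, Rps27rt in Sham 3 at 26.5 CPM, and Rpl17 in Sham 1 at 88.2 CPM.

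Paralogues and related genes were each compared with their canonical gene inside each library, where scaling has no effect. Rpl3l over Rpl3 is the pair of most interest in muscle, because Rpl3l is expressed in striated muscle and Rpl3 in most tissues. Rpl3l had 206, 191, 166 and 183 CPM in Sham 1 to 4 and 169, 184, 143 and 179 CPM in MR 1 to 4, for a log2 fold change of -0.14, with an SE of 0.09 (adjusted p = 0.481). Rpl3 had 171, 122, 121 and 167 CPM in Sham and 112, 132, 135 and 116 CPM in MR, for a log2 fold change of -0.23, with an SE of 0.12 (adjusted p = 0.395). Counts of Rpl3l were 1.20, 1.57, 1.38 and 1.09 times those of Rpl3 in Sham and 1.51, 1.39, 1.06 and 1.54 times in MR. The ratios overlapped fully, and the mean log2 ratio differed by 0.07 (two-sided exact permutation test, p = 0.8, adjusted p = 1 over 5 ratios).

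None of the other pairs differed beyond the spread between libraries. Counts of Rpl7l1 were 0.125, 0.145, 0.174 and 0.138 times those of Rpl7 in Sham 1 to 4 and 0.180, 0.159, 0.157 and 0.168 times in MR 1 to 4. Sham 3 lay inside the MR range, and the mean log2 ratio was 0.20 higher in MR (exact permutation p = 0.143, adjusted p = 0.714), where 0.0286 is the smallest p that 4 against 4 libraries allow. The difference was 0.04 for Rpl22l1 over Rpl22, 0.03 for Rps27l over Rps27 and 0.00 for Rps4l over Rps4x, with exact permutation p = 0.8, 0.8 and 1 and adjusted p = 1 in all 3. Rps4l is annotated as a transcribed pseudogene and is not a member. The ratio of Rps27l to Rps27, for example, was 0.414 ± 0.0623 in Sham and 0.418 ± 0.0184 in MR (SD, n = 4).

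Rpl7l1 varied little between libraries. It had 43.9, 38.4, 41.8 and 42.7 CPM in Sham 1 to 4 and 43.6, 45.1, 41.7 and 42.2 CPM in MR 1 to 4, a log2 fold change of 0.05, with an SE of 0.07 (adjusted p = 0.775). The high level that canonical genes had in Sham 1 and Sham 4 was nearly absent from it. Rps27l had a log2 fold change of 0.02 (adjusted p = 0.966), Rpl22l1 of -0.13 (adjusted p = 0.742) and Rps19bp1 of 0.01 (adjusted p = 0.981). Rpl24, the other canonical gene with a positive value, had 0.243 to 0.509 CPM over the 8 libraries and a log2 fold change of 0.26, with an SE of 0.35 (adjusted p = 0.774). Rps10 was at -0.14 (SE 0.25) and Rpl13a at -0.03 (SE 0.13), both at the low counts given above.

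Groups did not overlap for 1 member, with 0 members having every MR library above every Sham library, where 3.91% of all genes tested had MR below and 4.19% had MR above. That gene, Rpl23a, was singled out after its values were seen. It encodes a large subunit protein beside the tunnel exit and had 71.1, 71.1, 66.9 and 67.6 CPM in Sham 1 to 4 and 60.0, 65.0, 66.5 and 62.1 CPM in MR 1 to 4. The lowest Sham library was just above the highest MR library, and the log2 fold change of -0.13 (SE 0.06, adjusted p = 0.366) was smaller than that of the typical member. For Rpl23a, unlike most canonical genes, Sham 4 was not among the high libraries. Its exons overlap those of Tlcd1 on the opposite strand over 59.7% of their bases, and the sources used here do not say whether reads were counted by strand.

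Proteins of the ribosome that the symbol rule does not reach behaved like the members in these libraries. Rack1, a signalling scaffold on the small subunit, had 270, 199, 197 and 243 CPM in Sham 1 to 4 and 192, 217, 192 and 195 CPM in MR 1 to 4. Fau, made as a fusion of a ubiquitin-like domain with a small subunit protein, had 95.6, 57.2, 56.7 and 72.7 CPM in Sham and 60.1, 62.5, 54.3 and 57.3 CPM in MR. Both were highest in Sham 1 and Sham 4. The log2 fold changes were -0.19 for Rack1 (adjusted p = 0.390) and -0.27 for Fau (adjusted p = 0.430).

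Other genes of the translation pathway also had no calls. Elongation factors, 10 tested, had 0 called and a median log2 fold change of -0.08, with Eef2, which moves the ribosome along the message, at -0.17 (adjusted p = 0.262). Initiation factors with poly(A)-binding protein, 34 tested, had 0 called and a median of -0.07, with the lowest p for Eif5 at -0.20 (adjusted p = 0.275). In Sham 1 the median elongation and initiation genes stood 0.16 and 0.15 above their means (log2), and the median canonical ribosomal protein 0.37. Single genes of these lists were high in the same libraries as the members. Tpt1, a translationally controlled protein (in the initiation list, named after its values were seen), had 1168, 856, 796 and 1008 CPM in Sham 1 to 4 and 816, 915, 782 and 869 CPM in MR 1 to 4. Eef1b2, an exchange factor for elongation factor 1 named in the same way, had 132, 93.9, 93.2 and 109 CPM in Sham and 92.5, 105, 96.1 and 93.0 CPM in MR. Sham 1 and Sham 4 were the highest libraries for both, and neither was called (adjusted p = 0.470 and 0.531). Host genes of small nucleolar RNAs, many with pyrimidine-run messages themselves, stood at 0.31 in Sham 1 but at 0.04 in Sham 4. Of these, 11 of 12 were tested, 0 were called and the median was -0.05, with Snhg20 at -0.35 (adjusted p = 0.354).

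Genes that make ribosomes or control their number also had no calls. Of 52 ribosome biogenesis factors 0 were called, with a median of 0.01, and the one with the lowest p was Rrp12, a subunit export and processing factor, at 0.45 (adjusted p = 0.0816). Rrp12, picked by its p-value, had 18.2, 21.8, 25.4 and 17.9 CPM in Sham 1 to 4 and 25.6, 26.9, 29.5 and 31.7 CPM in MR 1 to 4. Its groups did not overlap, and MR was above. Among the 52 factors, 1 had MR above and 1 had MR below, where 4.19% and 3.91% of all genes tested did. RNA polymerase I and its factors, 17 of 20 tested, had 0 called and a median of -0.03, with Taf1a at -0.17 (adjusted p = 0.315). The mTORC1 list, 25 tested, had 0 called and a median of -0.02, with Sesn1, an inhibitor of mTORC1, at -0.24 (adjusted p = 0.107). MYC and its partners, 8 of 10 tested, had 0 called and a median of -0.09, with Max at -0.28 (adjusted p = 0.110).

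**Figure D5:**
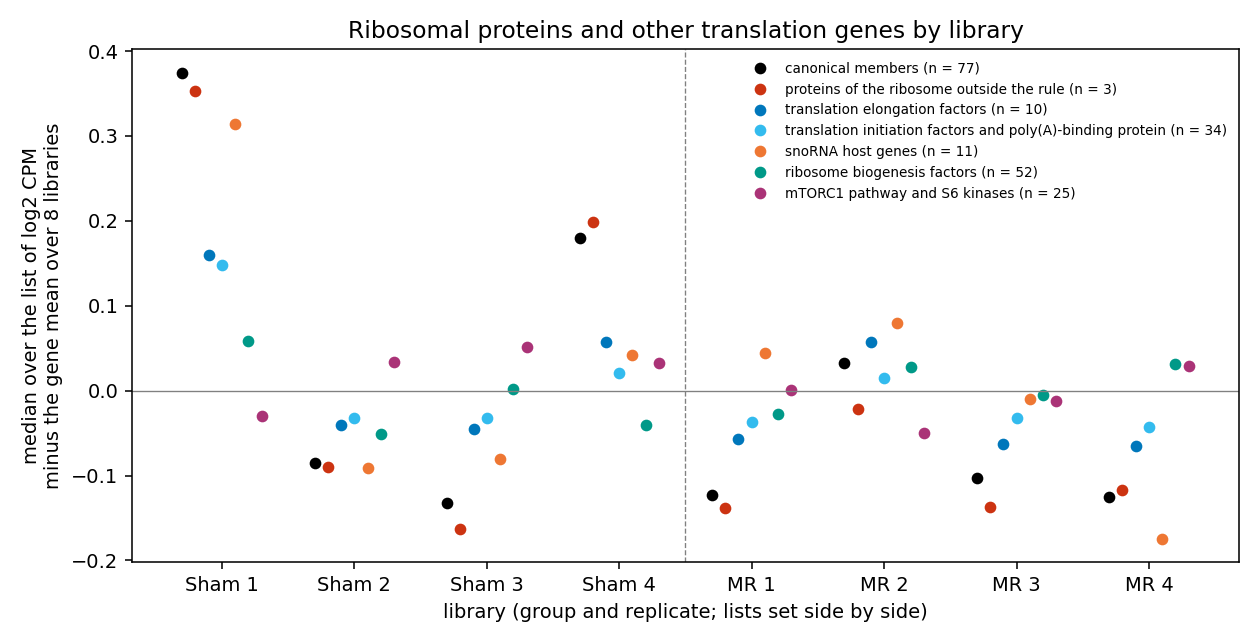
Median over each gene list of log2 CPM minus the gene's mean over 8 libraries, by library, with a colour per list and the number of genes tested in brackets. The canonical members and the ribosome proteins outside the rule lie at 0.37 and 0.35 in Sham 1 and at 0.18 and 0.20 in Sham 4, while ribosome biogenesis and mTORC1 genes stay between -0.05 and 0.06 in every library.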

How the data were processed

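Heart RNA (4 Sham and 4 MR libraries) was sequenced with an mRNA library kit, per the labels' protocols. The authors deposited raw read counts per gene, whole numbers that were not normalized. The submitters' processing notes name HISAT2 2.0.5 and the mm10 build, with no role. The counting tool, annotation release, strand setting and treatment of reads that match several places are not stated there or in the labels. Gene names, biotypes and exons came from GENCODE M21 (GRCm38), which named 32350 of 33105 identifiers.

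Genes were filtered with edgeR's filterByExpr (minimum count 10, minimum total 15), scaled by TMM and tested with edgeR 4.0.16 (R 4.3.3, quasi-likelihood with robust moderation, Benjamini-Hochberg over the 16603 genes tested, threshold 0.05). CPM are counts scaled to a common library total, after TMM. The fit was also run on simulated counts in which genes varied independently of each other. The members moved together, so that run does not bear on how the fit treats them as a group. Log2 deviations used a prior count of 2. Paralogue ratios needed 10 counts in every library. Alternatives were other scalings and filters, DESeq2 1.42.0, limma-voom (limma 3.58.1), removal of the length trend and each library left out.

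A symbol ending in -ps was read as -ps with or without a number, which left out 4 protein-coding symbols. The named members were the paralogues and their partners, the 5 lowest p-values in each direction, the highest and lowest levels per length, the stalk, 5S and reference gene lists, Rps6 and Rpsa. Rpl17, Rps27a and Rpl23a were added after their values were seen. Some genes enter the counts and medians but are not reported here by name or drawn where genes are labelled. The members and lists were chosen with earlier results of these data known.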

Additional observations from a re-analysis of the deposited data

Results flagged for a closer look

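In 2 of 90 groups of 4 libraries, taken over the named members and library-wide measures, a single library stood apart from the other 3. Both were Sham 1, in Rpl17 and Rps27a, which joined the named members after their values were seen. Chance sets apart about 1 group in 20, but the count cannot be set against that share, because these genes were picked by their values. Rpl17, a large subunit protein of the exit tunnel, had 88.2 CPM in Sham 1 against 41.4 CPM in the next library, a gap of 0.883 of the whole range. Its log2 fold change of -0.33 (SE 0.34, edgeR adjusted p = 0.716) became 0.08 without that library, and rows of Rpl17 pseudogenes held 189% as many counts as the gene. Rps27a, made as a fusion of ubiquitin with a small subunit protein, had 84.8 CPM in Sham 1 against 44.1 CPM in the next, a gap of 0.854 of the range, and 72.9 CPM in MR 2. Its log2 fold change of -0.08 (SE 0.36, adjusted p = 0.945) became 0.27 without Sham 1.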

How the results depend on the processing

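No paired analysis was possible because the replicate numbers only name the libraries in order of deposit and the labels tie no Sham library to an MR library. The members' median log2 fold change was below 0 under every alternative, from -0.25 to -0.07, and 0 members were called in all but 2 of the fits. Without a filter on low counts 1 was called higher (Rpl7a) and 5 lower (Rpl41, Rpl5 and Rps3a1 among them). That fit called 517 higher and 419 lower of 30605 genes. Without Sham 3, Rps3a1 and Rpl41 were lower (edgeR adjusted p = 0.0418 and 0.0424) among 390 lower and 497 higher genes of 16813. The range of called members when libraries were left out was 0 to 2. DESeq2 called 0 members, with a smallest adjusted p of 0.0543, and limma-voom called 0. Adding symbols ending in -ps, chosen after seeing the data, added no call. Taking canonical genes only, or dropping members that may share reads, was chosen in the same way. Both recount the same main fit, where 0 members were called, so they could not change a call.

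Over all genes the calls, 40 higher and 36 lower, became 53 and 17 with library totals only, 517 and 419 without a filter, 32 and 20 with a filter at 1 CPM, 309 and 308 with DESeq2, 227 and 202 with limma-voom and 84 and 85 with the length trend removed. With single libraries left out they ran from 1 to 497 higher and from 2 to 390 lower. Library totals alone put the median log2 fold change of all genes at 0.05, against 0.00.

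Some members changed sign, most with a small fold change, but also Rpl17 (-0.33 with all libraries). With totals only, Rps27 was at 0.013 and Rpl13a at 0.019. With limma-voom Rps27 was at 0.091, Rps29 at 0.030, Rpl13a at 0.055, Rplp2 at 0.0027, Rpl32 at 0.035 and Rps27a at 0.076. With the length trend removed Rps27 was at 0.047, Rps29 at 0.0055, Rpl13a at 0.016 and Rpl32 at 0.015. Libraries left out in turn gave -0.25 to 0.036 for Rpl22l1, -0.16 to 0.11 for Rps27, -0.14 to 0.052 for Rps29, -0.082 to 0.067 for Rpl13a, -0.20 to 0.028 for Rplp2, -0.11 to 0.051 for Rpl32, -0.47 to 0.082 for Rpl17, -0.35 to 0.27 for Rps27a, -0.049 to 0.15 for Rps27l, -0.075 to 0.13 for Rps19bp1 and -0.30 to 0.029 for Rps10. The log2 ratios ran from -0.24 to 0.17 for Rps4l over Rps4x, -0.042 to 0.094 for Rpl22l1 over Rpl22, -0.015 to 0.19 for Rpl3l over Rpl3 and -0.068 to 0.11 for Rps27l over Rps27. The cause was not tested. With 4 libraries a group, the members' median standard error was 0.11.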
